A study of Arabidopsis thaliana with 2 samples.

Results

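Mitochondria-encoded genes were followed here in leaves of Arabidopsis thaliana (thale cress), as every locus in the deposited counts whose identifier starts with ATMG, the prefix of the mitochondrial genome. This rule took 122 of 27336 loci and used no measured value. The atpip1;2-1 mutant, which carries a defect in the plasma membrane aquaporin PIP1;2, was compared with the wildtype, both in the Columbia ecotype and with no other agent or allele named in the labels. There was 1 library for each genotype, from the leaf RNA of 10 plants aged 3 weeks. The labels give growth on soil in a greenhouse, with 12 h of light a day at 70 to 80 µmol per square metre and second, 24 °C by day and 20 °C by night, 60% humidity and a CO2 concentration of 370 µmol per mol. The libraries were prepared from transcript 3′ ends and sequenced on a Genome Analyzer II. The mutant was a single line, the plants of a genotype were pooled, and neither genotype has a replicate library, so every interval and p-value covers counting error only and compares the libraries, not the genotypes.

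The mitochondrial genome of a plant encodes core subunits of the respiratory chain and of the ATP synthase, factors that attach heme to cytochrome c, and part of the mitochondrial ribosome. The remaining subunits of these complexes are encoded in the nucleus and imported. In plant mitochondria a poly(A) tail marks a transcript for decay, unlike the tail of a nuclear mRNA, and the sources used here do not say how the cDNA was primed. Chromosome 2 of Arabidopsis thaliana also carries a large insertion of mitochondrial DNA, so many of these genes have near-identical nuclear relatives.

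The reference annotation (RefSeq, assembly TAIR10.1) ties 53 of the 122 members to 55 such relatives, all on chromosome 2, and gives 24 members a protein name. These names come from the notes on the relatives, so a member without a relative has no name here. The account by complex below therefore covers only members with a relative on chromosome 2. Identity between a relative and the mitochondrial genome had a median of 100% and a lowest value of 99.03% over the aligned part, and 28 relatives had no difference there. The stretches shown next come from the members on which the comparison turns. The first pair holds the last 30 coding bases of atp9, called higher in the mutant library below, and of its relative AT2G07671, with the stop codon in capitals. The mitochondrial copy is at chrMT:270961-270990 and the nuclear copy at chr2:3251856-3251885, both on the minus strand of TAIR10.1.
atp9 of the mitochondrial genome: atggcctttttgatcttattcgtattcTGA
AT2G07671: atggcctttttgatcttattcgtattcTGA

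The next pair holds the last 30 coding bases of nad3, the named member with the most reads, at chrMT:288371-288400, and of its relative AT2G07751 at chr2:3270335-3270364, both on the plus strand, again with the stop codon in capitals.
nad3 of the mitochondrial genome: tggaaaaggggtgcttcggatcgggagTAA
AT2G07751: tggaaaaggggtgcttcggatcgggagTAA

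The last set surrounds the base by which AT2G07722, the nuclear relative of the called member ATMG00620, differs from the mitochondrial genome. The relative matched 2 places of the mitochondrial genome over its 420 bases, each with 1 difference, T56C, where the first base is that of AT2G07722, positions count from 1 at its 5′ end and the last base is the mitochondrial one. The differing base is in capitals. The nuclear stretch is at chr2:3438782-3438811 on the plus strand, and the mitochondrial stretches are at chrMT:713-742 and chrMT:194910-194939 on the minus strand.
AT2G07722: taccttccaaccaatTggccaatcacgcta
mitochondrial match 1: taccttccaaccaatCggccaatcacgcta
mitochondrial match 2: taccttccaaccaatCggccaatcacgcta

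Within the stretches printed for atp9 and nad3 the mitochondrial and nuclear copies are letter for letter the same in the genome assembly. The genome sequence of these stretches thus does not separate the copies, and whether their RNA differs there was not examined. The sources used here do not say how reads that match several loci were counted, and the part of the nuclear relatives in the values of the members was not tested.

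The mutant library held 4041759 reads and the wildtype library 4079098, and library sizes were scaled by TMM, a factor that lowers the weight of a few abundant genes. PIP1;2 had 566 reads in the mutant library, against 4211 reads in the wildtype library, which left 12.9% of the wildtype level. RBCS1A and LHCB1.3, defining genes of leaf tissue, had 74205 and 86845 reads in the mutant library and 92072 and 83909 reads in the wildtype library. The 7 markers of flower, seed and root hair had 0 to 2 reads in each library.

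Mitochondria-encoded loci took a small share of both libraries. Their 122 loci together had 1229 reads in the mutant library, or 0.0304% of its reads (95% Clopper-Pearson interval 0.0287 to 0.0322%). They had 1113 reads in the wildtype library, or 0.0273% (0.0257 to 0.0289%). In CPM, which are reads relative to the scaled library size, the sums were 297 CPM in the mutant and 280 CPM in the wildtype. The log2 ratio of mutant over wildtype was 0.09, with an interval of -0.03 to 0.20 that includes 0, and its upper bound corresponds to a 1.15-fold higher level. This interval takes every read as separate, although ATMG00170 and ATMG00620, described below, had equal counts and may share reads. With total counts as library sizes, which move the median log2 ratio of all tested loci to 0.07, the ratio was 0.16 and its interval, 0.04 to 0.27, lay above 0. In RNA pooled over a whole leaf, fewer cells of a type and less RNA per cell cannot be told apart.

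The 88 loci of the chloroplast, the other organelle with its own genome, had 78358 reads in the mutant library and 81565 reads in the wildtype library. Their summed log2 ratio was -0.11 (-0.13 to -0.10), on the other side of 0 from that of the mitochondrial sum, and the intervals of the sums do not overlap. A change of library sizes moves both sums by the same amount and leaves this gap as it is. The lack of overlap rests on 1 locus, ATMG00030, described below. Without it the mitochondrial log2 ratio was 0.02, still above that of the chloroplast, but its interval of -0.12 to 0.16 overlaps that of the chloroplast.

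Most members were barely read. A read was counted at 78 of the 122 loci in the mutant library and at 86 in the wildtype library, at 71 loci in both, and at neither for 29 loci. Where no read was counted, a level of up to 3 reads remains possible, which is 0.724 CPM in the mutant and 0.754 CPM in the wildtype. The 7 loci read in the mutant library alone and the 15 read in the wildtype library alone had at most 2 reads each, so these are not differences that this depth can show. In all, 54 members had 1 to 9 reads over both libraries, 11 had 10 to 19, and 28 had at least 20, the minimum for the test.

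**Figure D1:**
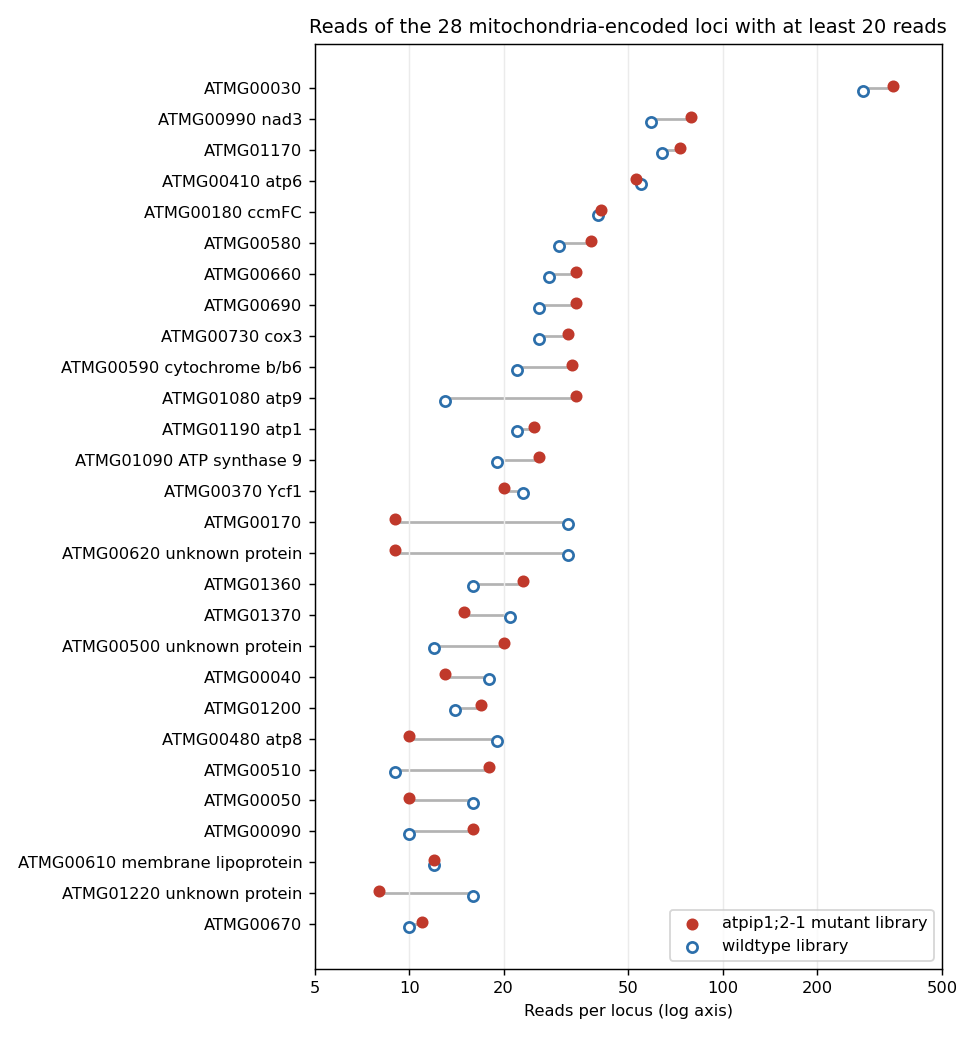
Reads per locus on a log axis for the 28 mitochondria-encoded loci with at least 20 reads over both libraries, ordered by their total, with the mutant and the wildtype library as separate points (1 library each, no error bars). ATMG00030 stands far to the right with 350 reads in the mutant and 281 in the wildtype, while the other loci have between 8 and 79 reads in the mutant and between 9 and 64 in the wildtype.

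The reads were unevenly spread over the loci. ATMG00030, which has no name in the reference used here, had 350 reads in the mutant library and 281 reads in the wildtype library, or 28.5% of all member reads in the mutant and 25.2% in the wildtype. Without it the sums were 879 reads in the mutant and 832 in the wildtype, and the log2 ratio was 0.02 (-0.12 to 0.16). Without the 3 loci with the most reads, ATMG00030, ATMG00990 and ATMG01170, the sums were 727 reads in the mutant and 709 in the wildtype, and the log2 ratio was -0.02 (-0.17 to 0.13). The 94 members with fewer than 20 reads summed to 166 reads in the mutant and 168 in the wildtype, with a log2 ratio of -0.07 (-0.39 to 0.24). Leaving out the most read loci thus brought the ratio of the sum closer to 0, and each of these intervals includes 0.

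Each of the 28 loci that reached the minimum was tested by a two-sided exact binomial test of its reads, adjusted by Benjamini-Hochberg over all 15111 loci tested. A locus was called when its adjusted p was under 0.05 and its level differed at least 2-fold. By this rule 1 member was called higher in the mutant library and 2 members were called lower, while 1.3% of all tested loci were called higher, 1.1% lower and 2.4% in either direction. With total counts as library sizes the background shares were 1.67% higher and 0.781% lower, and the same numbers of members were called. The interval of the log2 ratio excluded 0 for 4 members, 2 on each side, against a background of 23.5% of all tested loci. Members have few reads, and among the 8103 tested loci with at most 138 reads, the total of the member second in reads, 2.99% were called and 11.8% had an interval without 0. The 3 called members were 10.7% of those tested, a share above these backgrounds that rests on 3 loci, of which 2 had the same reads in each library. Counting that pair as 1 observation left 2 called of 27, or 7.41%. The 4 intervals without 0 were 14.3% of the tested members, close to the background of loci with few reads and below that of all loci.

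The log2 ratios of the 28 tested members had a median of 0.18, quartiles of -0.33 and 0.37 and a range from -1.89 to 1.33. Over all tested loci the median was 0.00 and the quartiles were -0.27 and 0.26. Above 0 lay 17 members, or 60.7%, and 49.8% of all tested loci. Among the 8103 tested loci with at most 138 reads, the median was 0.03, the quartiles were -0.3 and 0.34, and 4224 lay above 0. The ratio was within 0.25 of 0 for 9 members and within 0.5 for 16. Precision was low, since the intervals had a median width of 2.00 log2 units against 1.07 over all tested loci, and for 22 members the interval reached past 2-fold in at least 1 direction.

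**Figure D2:**
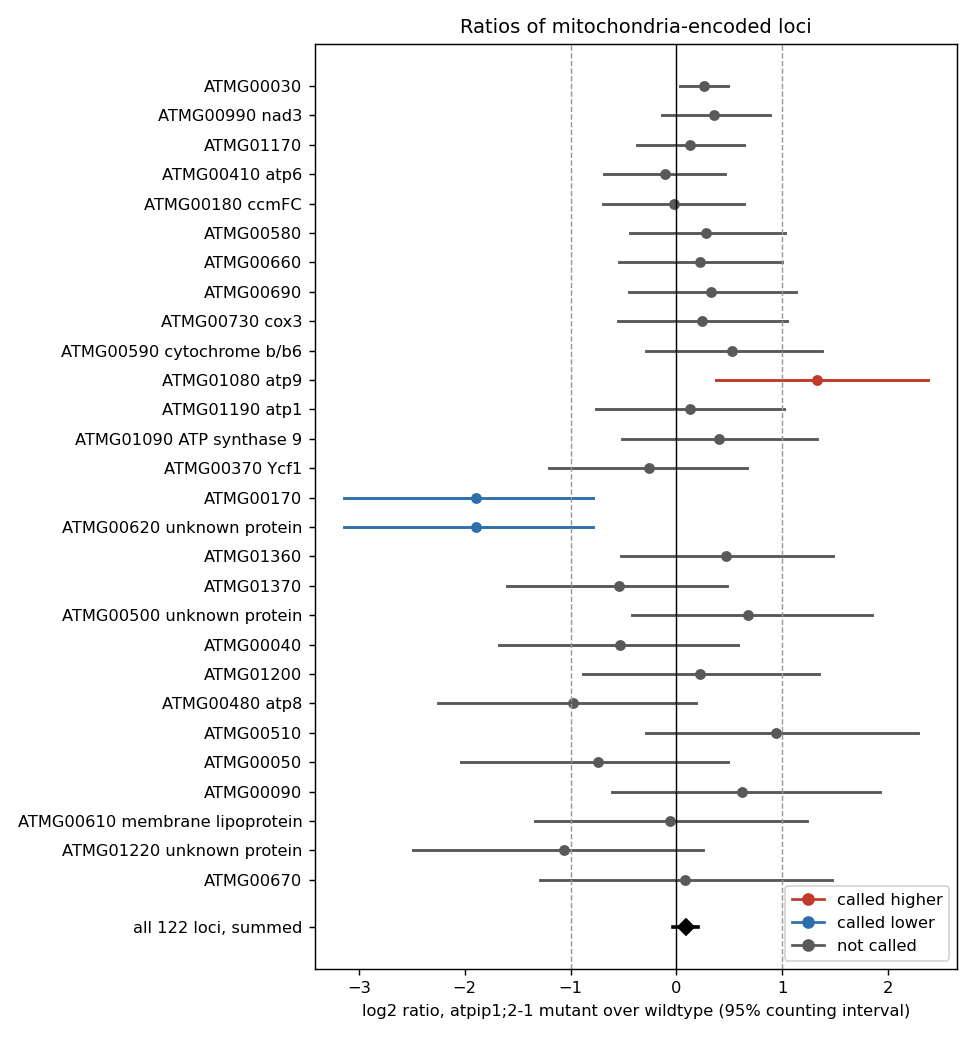
Log2 ratio of CPM, mutant over wildtype, for the 28 tested mitochondria-encoded loci, with 95% Clopper-Pearson intervals that cover counting error of the reads only (1 library per genotype), dashed lines at 2-fold and the sum of all 122 loci as a diamond. ATMG01080 (atp9) lies to the right at 1.33, ATMG00170 and ATMG00620 lie to the left at -1.89 with the same reads, and 24 of the 28 intervals include 0.

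Complex I, the NADH dehydrogenase that passes electrons into the chain, was represented by 3 named members. Loci without a name were not assigned to any complex or to the ribosome, so this coverage can be incomplete. ATMG00990 (nad3), a subunit of its membrane arm, had 79 reads in the mutant library and 59 reads in the wildtype library, or 19.1 CPM in the mutant and 14.8 CPM in the wildtype. Its log2 ratio of 0.36 had an interval of -0.14 to 0.88 that includes 0. The named loci of nad2 (ATMG01320) and nad1 (ATMG01275) had 5 and 1 reads in the mutant library, against 3 and 2 reads in the wildtype library, too few for a test.

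For complex III, which carries electrons from ubiquinol to cytochrome c, the locus of apocytochrome b (ATMG00220, cob) had 1 read in each library. ATMG00590, which the reference calls a cytochrome b/b6 protein, had 33 reads in the mutant library and 22 reads in the wildtype library, a log2 ratio of 0.53 (-0.29 to 1.38). The reads of cob and ATMG00590 thus differed much in number. ATMG00590 did not differ between the libraries beyond counting error, and cob had too few reads for a test.

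In complex IV, the cytochrome c oxidase that reduces oxygen, ATMG00730 (cox3), a core subunit, had 32 reads in the mutant library and 26 reads in the wildtype library. Its log2 ratio was 0.24 (-0.55 to 1.05). ATMG01280, named in the reference for a transmembrane domain like that of subunit II, had 4 reads in the mutant library and 13 reads in the wildtype library. With 17 reads it was under the minimum for a test, and it is named here after its values were seen.

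The ATP synthase makes ATP from the proton gradient, and 4 of its mitochondria-encoded subunits with a name in the reference were tested. Loci without a name there were not assigned to this complex. ATMG01080 (atp9), the subunit that forms the rotating ring of the membrane part, had 34 reads in the mutant library and 13 reads in the wildtype library, or 8.21 CPM in the mutant and 3.27 CPM in the wildtype. This was the called higher member, with a log2 ratio of 1.33 (0.37 to 2.38) and an adjusted p of 0.036 by the exact binomial test. None of the other tested subunits was called, and their ratios lay on both sides of 0. ATMG00410 (atp6), the membrane subunit beside the ring, had 53 reads in the mutant library and 55 reads in the wildtype library, a log2 ratio of -0.11 (-0.68 to 0.46). ATMG01190 (atp1), the catalytic-head subunit alpha, had 25 reads in the mutant library and 22 reads in the wildtype library, a ratio of 0.13 (-0.76 to 1.02). ATMG00480 (atp8), a small membrane subunit, had 10 reads in the mutant library and 19 reads in the wildtype library, and its log2 ratio of -0.98 (-2.25 to 0.19) was not called. Their intervals all include 0, and the 4 ratios had a median of 0.01. ATMG01090, which the reference calls ATP synthase 9, had 26 reads in the mutant library and 19 reads in the wildtype library, a log2 ratio of 0.40 (-0.51 to 1.33).

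The call of atp9 rests on 47 reads. It is lost when a spread of 0.2 between biological replicates (as a coefficient of variation) is assumed in place of counting error alone, and the locus is not tested at a minimum of 50 reads.

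Cytochrome c maturation attaches heme to the carrier that links complexes III and IV. ATMG00180 (ccmFC), part of the heme attachment machinery, had 41 reads in the mutant library and 40 reads in the wildtype library, and its log2 ratio of -0.02 had an interval of -0.69 to 0.64. ATMG00900 (ccmC) had 2 reads in the mutant library and 1 read in the wildtype library, and ATMG00960 (ccmFN2) had 0 reads in both. No difference was detectable at this depth.

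The mitochondrial ribosome was represented by 5 named loci, none with 20 reads. ATMG00980 (rps12), a protein of the small subunit, had 10 reads in the mutant library and 3 reads in the wildtype library. ATMG00560 (rpl2) had 4 reads in the mutant library and 3 in the wildtype library, and ATMG01270 (rps7) had 3 reads in the mutant and 2 in the wildtype. ATMG00210 (rpl5) had 3 reads in the mutant library and 1 in the wildtype library, and ATMG00290 (rps4) had 1 read in the mutant and 3 in the wildtype. These ribosomal proteins were close to the limit of detection in both libraries.

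The called lower members were ATMG00170, which has no annotation in the reference used here, and ATMG00620, annotated there as an unknown protein. Each had 9 reads in the mutant library and 32 reads in the wildtype library, or 2.17 CPM in the mutant and 8.04 CPM in the wildtype. The log2 ratio was -1.89 (-3.14 to -0.79) with an adjusted p of 0.0032 by the exact binomial test. The nuclear locus AT2G07722 also had 9 reads in the mutant and 32 in the wildtype. The counts of these 3 loci are equal in both libraries. AT2G07722 and its 2 mitochondrial matches share their sequence apart from the base shown above, but the reference used here does not tie ATMG00170 to either match. For their equal counts the 3 loci are counted here as 1 observation, and its genome of origin cannot be told apart. The call is lost under the same assumed spread of 0.2 between replicates, and the loci, at 41 reads, are not tested at a minimum of 50.

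Of the loci without an annotation in the reference used here, 14 were tested, 10 with a log2 ratio above 0 and 4 below, and ATMG00170 was the called one. ATMG00030, at 84.5 CPM in the mutant and 70.6 CPM in the wildtype, had a log2 ratio of 0.26 and an interval of 0.03 to 0.49 above 0. It was not called, since it differed 1.2-fold and its adjusted p was 0.14. Its large count made its interval the narrowest of the members, and a difference of this size could not have been seen in the others.

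ATMG01170 had 73 reads in the mutant library and 64 reads in the wildtype library, a log2 ratio of 0.13 (-0.37 to 0.64). ATMG00580, ATMG00660 and ATMG00690 had 38, 34 and 34 reads in the mutant library, against 30, 28 and 26 reads in the wildtype library, with log2 ratios of 0.28, 0.22 and 0.33. These had more reads in the mutant library, each by less than counting error. ATMG01360 had 23 reads in the mutant library and 16 in the wildtype library, and ATMG01370 had 15 reads in the mutant and 21 in the wildtype, so these unannotated loci lay on opposite sides of 0 at 0.47 and -0.54.

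ATMG00510 had 18 reads in the mutant library and 9 reads in the wildtype library, a log2 ratio of 0.94 (-0.29 to 2.28). ATMG00090, ATMG01200 and ATMG00670 had 16, 17 and 11 reads in the mutant library, against 10, 14 and 10 reads in the wildtype library. ATMG00040 and ATMG00050 had 13 and 10 reads in the mutant library, against 18 and 16 reads in the wildtype library. At counts this low a 2-fold difference, such as that of ATMG00510, lies inside the interval of counting error.

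The remaining tested members have an annotation without a clear role in respiration. ATMG00500, an unknown protein, had 20 reads in the mutant library and 12 reads in the wildtype library, a log2 ratio of 0.68 (-0.42 to 1.85). ATMG01220, also an unknown protein, had 8 reads in the mutant library and 16 reads in the wildtype library, a log2 ratio of -1.06 (-2.49 to 0.25). ATMG00370, annotated as a Ycf1 protein, had 20 reads in the mutant and 23 in the wildtype, and ATMG00610, annotated as a putative membrane lipoprotein, had 12 reads in each library. None of these was called, and all 4 intervals include 0. The 11 members with 10 to 19 reads over both libraries ranged from 4 to 10 reads in the mutant library and from 3 to 13 in the wildtype library, and summed to 81 reads in the mutant and 85 in the wildtype.

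The nuclear relatives give a reading of how far the counts of a member can be assigned to the mitochondrial genome. Of the 55 pairs, 43 had the relative in the deposited counts. The 2 loci of a pair had equal counts in both libraries in 15 of the 43 pairs, and in 3 of the 14 pairs whose member was tested. Most of the 15 had fewer than 10 member reads, and some had 0 reads at both loci, where equal counts tell little. Of the 16 pairs with 10 or more member reads, 4 had equal counts. The equal pairs among the tested members were atp8 with AT2G07707, at 10 reads in the mutant and 19 in the wildtype, ATMG00590 with AT2G07718, at 33 reads in the mutant and 22 in the wildtype, and ATMG00620 with AT2G07722, at 9 reads in the mutant and 32 in the wildtype. A further 2 of the 14 pairs were within 1 read in each library. For these genes a read was listed at both loci, or the loci received equal numbers.

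Other pairs differed. The relative had more reads than the member in both libraries in 6 of the 14 pairs and fewer in both in 3. AT2G07751, the relative of nad3, had 125 reads in the mutant library and 100 reads in the wildtype library, while nad3 itself had 79 reads in the mutant and 59 in the wildtype. AT2G07687, the relative of cox3, had 4 reads in the mutant library and 8 in the wildtype library, while cox3 itself had 32 reads in the mutant and 26 in the wildtype. Of 12 pairs with both loci tested, 9 had log2 ratios of the same sign, and this is a description only, since the loci of a pair can share reads.

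**Figure D3:**
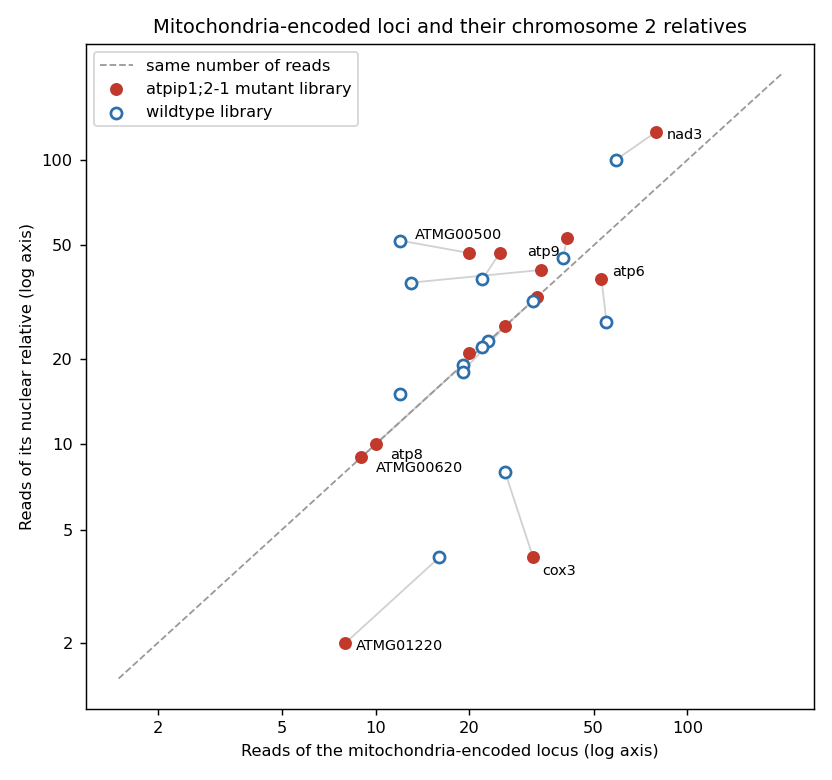
Reads of the nuclear relative on chromosome 2 against reads of the mitochondria-encoded member, on log axes, for the 14 pairs whose member has at least 20 reads, with the mutant and the wildtype library as separate points joined by a line (1 library each; the ATMG00610 points coincide). Points on the diagonal have equal counts, as for ATMG00480 (atp8), ATMG00590 and ATMG00620, while ATMG00730 (cox3) lies below it and ATMG00990 (nad3) above it.

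The nuclear relative of atp9 was not called. AT2G07671 has the same sequence as the mitochondrial genome over all of its 776 bases, including atp9, and had 41 reads in the mutant library and 37 reads in the wildtype library. Its log2 ratio was 0.09 (-0.59 to 0.77). Summed over both loci there were 75 reads in the mutant library and 50 reads in the wildtype library, a log2 ratio of 0.53 (-0.01 to 1.07) whose interval includes 0. The part that the placement of reads between these loci has in the call of atp9 was not tested. The atp6 loci of the mitochondrial genome and of chromosome 2 lay on opposite sides of 0 with neither called, at -0.11 for ATMG00410 and 0.44 (-0.31 to 1.20) for AT2G07741, with 38 reads in the mutant and 27 in the wildtype.

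The relatives were also summed. The 43 relatives alone had 555 reads in the mutant library and 522 reads in the wildtype library, a log2 ratio of 0.03 (-0.14 to 0.21). Members and relatives together had 1784 reads in the mutant library and 1635 reads in the wildtype library, a log2 ratio of 0.07 (-0.03 to 0.17). A read listed at both loci of a pair enters that sum at each of them, so the sum is no independent check of the members, and its interval is too narrow where reads repeat.

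Nuclear genes for the same complexes were mostly read far more deeply and give the setting of the members. Together with the genes of cytochrome c, the carrier between complexes III and IV, they make up 50 of the 69 tested loci on 8 lists. The others are bypass enzymes, expression factors and markers of mitochondrial dysfunction. None of the 69 was called at 2-fold. Their log2 ratios lay below 0 for 49 of the 69, and the interval was below 0 for 19 and above 0 for 0 of them, against a background of 13.2% of all tested loci with an interval below 0 and 10.3% above. This share depends on depth: of the 4830 tested loci with 163 to 794 reads, the middle range of these lists, 16.5% had an interval below 0 and 14.5% above. Over all 69 loci the share with an interval below 0 was 27.5%. The 9 ATP synthase loci make up part of the 19, and without them 10 of 60 loci, or 16.7%, had an interval below 0. With or without that list, 0 intervals lay above 0 under TMM, against the 14.5% in the middle range of reads. This depends on the scaling: under total counts as library sizes, 1 complex I locus and 1 dysfunction marker had an interval above 0. Among the 50 loci of complexes I to V with cytochrome c, intervals below 0 numbered 16 under TMM and 11 under total counts. For these 50 nuclear loci the median was -0.18, and for the 28 mitochondria-encoded loci it was 0.18. With total counts as library sizes these medians were -0.11 and 0.25. The difference between these medians was not tested.

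The nuclear ATP synthase list was the one in which every member lay on the same side. All 9 loci had an interval below 0, with log2 ratios between -0.49 and -0.19 and a median of -0.33. Of the 654 tested loci in the same range of reads, 43.1% had an interval below 0 and 19.7% above 0. With total counts as library sizes 7 of the 9 intervals stayed below 0 and the median was -0.26. ATP3, the gamma subunit, had 654 reads in the mutant library and 870 reads in the wildtype library, a log2 ratio of -0.47 (-0.62 to -0.32). AT5G08670, a beta subunit gene, had 716 reads in the mutant library and 800 reads in the wildtype library, a log2 ratio of -0.22 (-0.36 to -0.07). The beta subunit genes AT5G08670, AT5G08680 and AT5G08690 are close copies, and their separate counts are uncertain. None of the nuclear ATP synthase genes differed 2-fold.

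**Figure D4:**
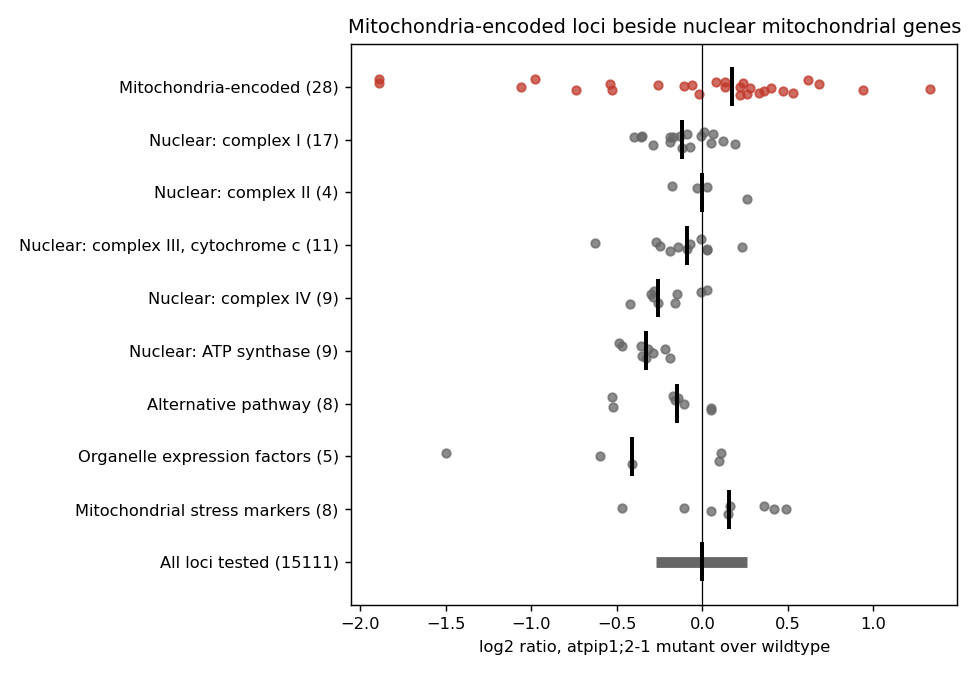
Log2 ratio of CPM, mutant over wildtype, of each tested locus by list, with the 28 mitochondria-encoded loci beside the 8 nuclear lists; the bar in each list is its median and the grey band spans the quartiles of all 15111 tested loci. The 9 nuclear ATP synthase loci all lie between -0.49 and -0.19, while the mitochondria-encoded loci spread from -1.89 to 1.33 around a median of 0.18.

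The other complexes had medians closer to 0. For complex I the median over 17 loci was -0.12, with 4 intervals below 0, and the members with the most reads, AT5G11770 and AT3G12260, had log2 ratios of -0.07 and -0.13. For complex II, succinate dehydrogenase, the median over 4 loci was 0.00, and SDH3-1 and SDH1-1 had log2 ratios of 0.03 and -0.03. For complex III with cytochrome c the median over 11 loci was -0.09. CYTC-1, a gene for cytochrome c itself, had 476 reads in the mutant library and 707 reads in the wildtype library, a log2 ratio of -0.63 (-0.80 to -0.46) that passes the test at a 1.5-fold limit. AT4G32470, a small subunit of complex III, had a log2 ratio of -0.07. For complex IV the median over 9 loci was -0.26, with 8 below 0 and 2 intervals below 0, of which 0 remained with total counts or DESeq2 size factors, and the most read, AT4G37830 and COX6B, had log2 ratios of 0.03 and -0.15.

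Bypass enzymes of the chain, the alternative oxidases, alternative NAD(P)H dehydrogenases and uncoupling proteins, had 8 of 14 loci tested and a median of -0.15, with 2 intervals below 0. NDA1, an internal alternative dehydrogenase, had 219 reads in the mutant library and 305 reads in the wildtype library, a log2 ratio of -0.53, and PUMP1, an uncoupling protein, had 155 reads in the mutant and 168 in the wildtype. Factors of mitochondrial transcription and RNA turnover had 5 of 7 loci tested and a median of -0.41. EMB2730, a ribonuclease, had 75 reads in the mutant library and 67 in the wildtype library, and ATWHY2, a DNA-binding protein of mitochondria, had 57 reads in the mutant and 73 in the wildtype. SHOT1, a mitochondrial transcription termination factor relative named after its values were seen, had 7 reads in the mutant library and 19 reads in the wildtype library, the only interval of that list without 0, at -1.50 (-2.99 to -0.18). Markers of mitochondrial dysfunction, nuclear genes known to respond when respiration is blocked, had 8 of 13 loci tested, a median of 0.16 and no interval without 0. NAC017, a regulator of that response, had 164 reads in the mutant library and 141 reads in the wildtype library, and its target AOX1A, the alternative oxidase, had 125 reads in the mutant and 116 in the wildtype.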

How the data were processed

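The authors deposited raw read counts for each locus in whole numbers, with a column for each genotype per the file headers. The submitters' processing notes name the build TAIR9. The sources used here give no aligner, no use of strand and no rule for reads matching several loci. A repeated row of 1 locus was kept a single time. With 1 library per genotype the edgeR quasi-likelihood test has no residual degrees of freedom. CPM used TMM factors (edgeR 4.0.16, R 4.3.3) of 1.02 in the mutant and 0.976 in the wildtype. Log2 ratios have 95% Clopper-Pearson intervals, and p-values come from exact binomial tests (two-sided), adjusted by Benjamini-Hochberg over loci with at least 20 reads (scipy 1.17.1, Python 3.11.15). Reads carry no molecular identifiers, so intervals and limits for a count of 0 cover counting error only. Calls were also tested on simulated data that held counting error only, so that test says nothing about spread between replicates. Read totals per locus are not scaled for length.

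Protein names and nuclear relatives of members came from the notes of the RefSeq annotation of TAIR10.1, and relatives were aligned to its mitochondrial genome with BLAST 2.17.0; coordinates refer to that assembly, not to the build of the counts. All tested members are named, and in each nuclear list the 2 loci with the most reads. The members and all lists were chosen with earlier results of these data known. Alternatives changed library sizes (total counts, DESeq2 1.42.0 size factors, totals without organelle loci and the 20 most abundant loci), the read minimum (1, 10 or 50), the fold (1.5), the test, the depth and the loci summed. The sums over named loci and with relatives added, and the counts and median with loci of equal reads taken a single time, were chosen after seeing the data.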

Additional observations from a re-analysis of the deposited data

How the results depend on the processing

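The count of 1 member called higher and 2 called lower held under every library size, under the read minimums of 1 and 10, at 1.5-fold and after thinning the deeper library. With a minimum of 50 reads 10 members were tested, 0 were called higher, 0 lower, and 1 interval excluded 0. With the edgeR exact test at an assumed biological coefficient of variation of 0.2, 0 members were called higher and 0 lower, with log2 ratios of 1.32 for ATMG01080 and -1.87 for ATMG00170 and ATMG00620. Counting loci with equal reads a single time left 1 member called lower. At 1.5-fold 1 nuclear locus, CYTC-1, was called. The summed log2 ratio was 0.16 with total counts and 0.16 with totals lacking organelle and abundant loci, both with an interval above 0 (0.04 to 0.27 and 0.04 to 0.28). It ranged from -0.02 to 0.18 over all alternatives and the median of the members from -0.02 to 0.25. The cause was not tested. Of the log2 ratios of single members, 231 values kept their side of the threshold and 3 lost their call. Other read minimums and the 1.5-fold limit leave each ratio as it is, so their values could not change direction. The 3 called members are not tested at a minimum of 50 and do not count there as lost calls. In 5 values the ratio moved across or to 0, for ATMG00180 and ATMG00610, which lay near 0 and were not called. No paired analysis was possible because each genotype has 1 library.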
